A study of Mus musculus with 12 samples.

Results

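The lysosome and autophagy genes described here are 36 mouse genes chosen by symbol, by a rule that uses no measured value but with earlier results of these data known, from a table that lists 15720 genes. All 36 were found in the table, and 35 of them passed the filter on low values (a mean of at least 0.5 FPKM over 12 libraries). The exception was Mitf, at 0.19 to 0.44 FPKM. FPKM is a level corrected for library size and transcript length, so that levels of different genes can be set side by side.

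RNA was sequenced from EMS404, a mouse cell line that the labels give as hepatic stellate cells from liver of the C57Bl6 strain. Cells of all 4 groups were immortalized with SV40 and expressed human TLR4. They were transfected with an siRNA against Bmal1 (gene symbol Arntl), the transcription factor at the core of the circadian clock, or with a scrambled siRNA. After 48 h they were given TGFb, the growth factor that drives fibrogenic activation of stellate cells, at 10 ng/mL, or vehicle, for a further 24 h. The groups, of 3 libraries each, were Bmal1 siRNA with TGFb, Bmal1 siRNA with vehicle, scrambled siRNA with TGFb and scrambled siRNA with vehicle. A single immortalized line stands in for stellate cells throughout, and RNA was extracted with either of a pair of kits, with the kit of each library not stated.

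Lysosomes are acidic organelles in which hydrolases break down glycans, lipids, proteins and glycogen, and autophagy is the route by which a membrane sac encloses cytoplasm and delivers it to them. TFEB, TFE3 and MITF switch on many lysosomal and autophagy genes through an E-box-containing promoter element, and the kinase mTORC1 holds TFEB in the cytoplasm when nutrients are plentiful. The heterodimer of BMAL1 and CLOCK also binds E-boxes. In mouse stellate cells autophagy is known to deliver stored lipid to lysosomes during activation.

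Promoter sequence is shown first, because the E-box that both classes of factor bind is the feature these genes are known for. RefSeq promoters of build GRCm38.p6 (250 bases before to 50 bases after each annotated start, 300 in all) were matched by symbol for 30 of the 36 genes. Map1lc3a, Atg16l1, Galns, Becn1, Atp6v1h and Atg12 had no matched entry. The 6-base E-box CACGTG, which reads the same on both strands, was present in promoters of 11 of the 30 genes (36.7%). Counted the same way, by gene, it was in 12.1% of the 8939 tested genes with a promoter entry. Counted by promoter, it was in 11 of the 38 of these genes, against 7.15% of all 32851 promoters of the same length. The longer 8-base element GTCACGTG or its reverse complement CACGTGAC, each of which contains the shorter motif, was present in 8 of the 30 genes (26.7%). By gene it was in 447 of the 8939 tested genes. By promoter it was in 8 of the 38, against 2.25% of all promoters. A match describes the letters only and is not evidence of binding. The windows below hold the 10 sites within an 8-base element, followed by the 6-base sites of Gaa and Atp6v1a for contrast. Each is 26 bases, 5′ to 3′ on the strand of the gene, with the E-box in capitals.
Naglu: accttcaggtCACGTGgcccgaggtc
Gla: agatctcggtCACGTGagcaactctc
Glb1: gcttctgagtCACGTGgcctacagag
Lamp1: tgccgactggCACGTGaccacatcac
Mcoln1 upstream site: tcgcgcttgtCACGTGttcagttcag
Mcoln1 downstream site: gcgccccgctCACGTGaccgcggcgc
Atp6v0d1: ctactgcggtCACGTGagacgcggtg
Atg7: tattggtggtCACGTGtgcagtaagt
Atg3 upstream site: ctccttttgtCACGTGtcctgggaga
Atg3 downstream site: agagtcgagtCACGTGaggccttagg
Gaa: tctgtgcgatCACGTGtttgactctg
Atp6v1a: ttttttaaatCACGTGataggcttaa

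The windows lie at chr11:101070011-101070036 (Naglu, plus strand), chrX:134601184-134601209 (Gla, minus strand), chr9:114401020-114401045 (Glb1, plus strand) and chr8:13159123-13159148 (Lamp1, plus strand). Those of Mcoln1 are at chr8:3500438-3500463 and chr8:3500464-3500489, plus strand, and that of Atp6v0d1 is at chr8:105566052-105566077, minus strand. The Atg7 window is at chr6:114670954-114670979, plus strand. The RefSeq start behind it lies 27999 bases downstream of the GENCODE start of the gene, whereas those of the other 10 genes lay from 19 bases before to 446 bases after their GENCODE starts. Without Atg7 the motif counts were 10 of 29 genes (34.5%), and 7 of 29 for the 8-base element. The Atg3 windows are at chr16:45158725-45158750 and chr16:45158748-45158773, plus strand. The windows of Gaa and Atp6v1a are at chr11:119267813-119267838, plus strand, and chr16:44139375-44139400, minus strand. In all, 17 E-boxes were found in the 11 promoters, 3 to 227 bases before the annotated start, and at 0 of them did both 8-base forms overlap in a full palindrome.

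The promoter of Lamp1, which encodes an abundant glycoprotein of the lysosomal membrane, held 4 E-boxes within its 300 bases (chr8:13158911-13159210, plus strand).
Lamp1: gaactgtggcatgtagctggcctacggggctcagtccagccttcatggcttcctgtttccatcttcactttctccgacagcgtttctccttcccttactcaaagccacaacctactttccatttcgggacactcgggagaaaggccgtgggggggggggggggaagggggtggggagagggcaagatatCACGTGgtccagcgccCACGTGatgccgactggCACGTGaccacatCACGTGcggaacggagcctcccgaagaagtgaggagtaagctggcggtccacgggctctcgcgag

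The promoter of Gla, which encodes the lysosomal enzyme alpha-galactosidase A, held 2 (chrX:134600956-134601255, minus strand). Lamp1 and Gla are shown because Gla was among the members whose TGFb response depended on the siRNA, and Lamp1 passed no test in the values as deposited. These results are given below, and the genes were not tested against each other.
Gla: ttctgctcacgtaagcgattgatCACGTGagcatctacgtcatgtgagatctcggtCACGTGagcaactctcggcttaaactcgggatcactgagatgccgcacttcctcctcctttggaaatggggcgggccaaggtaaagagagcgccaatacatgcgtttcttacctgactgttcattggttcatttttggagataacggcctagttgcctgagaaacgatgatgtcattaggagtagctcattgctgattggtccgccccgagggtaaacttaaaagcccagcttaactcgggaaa

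**Figure D1:**
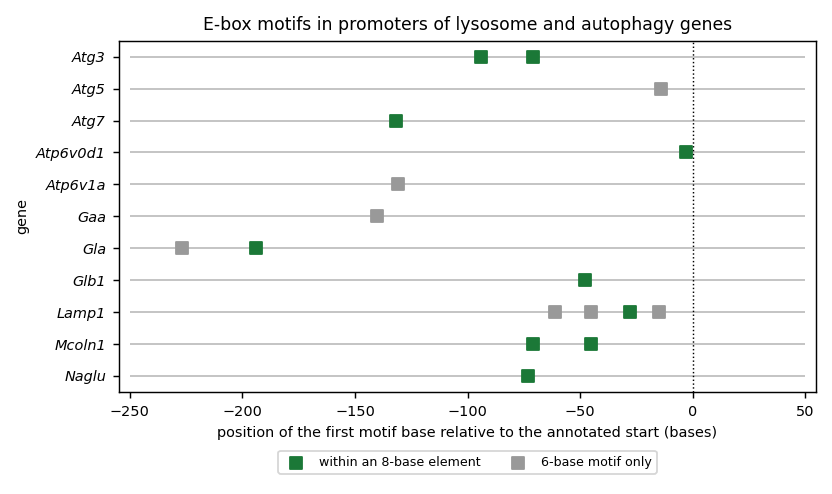
Position of each CACGTG E-box in the promoters of the 11 lysosome and autophagy genes that held one. The horizontal axis is the position of the first motif base relative to the annotated start in bases, each row is a gene, green squares are sites within an 8-base element and grey squares are 6-base motifs only. Lamp1 has 4 sites close together before the start and the site of Atp6v0d1 is 3 bases before it.

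The libraries listed 13673 to 13975 genes above 0, with FPKM totals of 445472 to 483957, and the read depth of each library is not given by these values. Arntl, the target of the siRNA, averaged 4.35 ± 0.603 FPKM in Bmal1 siRNA cells with TGFb, 3.79 ± 0.171 in Bmal1 siRNA cells with vehicle, 10.7 ± 0.184 in scrambled siRNA cells with TGFb and 5.18 ± 0.26 in scrambled siRNA cells with vehicle (SD, n = 3 each). It was lower with the siRNA under TGFb (log2 change -1.13 ± 0.075, SE, adjusted p = 1.38e-06). Under vehicle it was also lower (-0.37 ± 0.075, adjusted p = 0.049), a call that was lost in 13 of the alternative settings, among them each omission of a vehicle library. On the first principal component of all tested genes (71.0% of the variance) the Bmal1 siRNA TGFb libraries lay at 13.0, -5.1 and 8.4, the scrambled TGFb libraries at 29.8, 27.3 and 27.2, and the 6 vehicle libraries at -17.8 to -15.4. Replicate 2 of Bmal1 siRNA with TGFb thus lay nearest to the vehicle libraries. The main counts that rest on it, and selected gene values, are given with and without it.

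Markers fixed for the labelled cell type gave summed levels of 6494 to 6752 FPKM in Bmal1 siRNA cells with TGFb, 5557 to 5903 in Bmal1 siRNA cells with vehicle, 7147 to 7564 in scrambled siRNA cells with TGFb and 5181 to 5570 in scrambled siRNA cells with vehicle. Of the 16 stellate markers 11 were tested, led by Col1a1, Col1a2 and Vim. The stellate transcription factor Hand2 was at 77.08 to 134.97 FPKM, Pdgfrb at 10.35 to 30.86, Pdgfra at 10.67 to 47.93 and Dcn at 46.62 to 423.44. Desmin (Des) was at 0.52 to 1.23 FPKM, and Rgs5, Ngfr and Lum were below 0.5 FPKM in every library. Lrat and Reln, also among the 16, were absent from the deposited genes. With TGFb and scrambled siRNA 5 of the 11 rose and 3 fell (Hand2, Pdgfra and Dcn). Macrophages are rich in lysosomes, and of 12 leukocyte and macrophage markers 4 were tested, with Lyz2, Itgam and Laptm5 below 0.5 FPKM in every library. Their summed level was 19.2 to 25.1 FPKM in Bmal1 siRNA cells with TGFb, 22.2 to 22.8 with vehicle, 20.4 to 23.5 in scrambled siRNA cells with TGFb and 24.7 to 25.8 with vehicle. Within that sum, which Cd74 leads, 2 markers fell with TGFb in scrambled siRNA cells, the direction of most lysosomal genes below, and 1 (Fcer1g) rose. Cd68, itself a lysosomal glycoprotein, averaged 2.86 ± 0.165 FPKM in scrambled siRNA cells with TGFb and 4.28 ± 0.508 with vehicle (log2 change -0.45, adjusted p = 0.000739). Cd14 averaged 4.80 ± 0.698 FPKM in scrambled siRNA cells with TGFb and 7.81 ± 0.93 with vehicle (-0.60, adjusted p = 2e-04). With Bmal1 siRNA 0 of the 4 were called by limma between TGFb and vehicle. Between siRNAs 1 of the 4 was lower with Bmal1 siRNA under TGFb, against 7.16% of all tested genes. Under vehicle 1 was lower, against 0.366%. The change with TGFb differed between siRNAs, in the positive direction, for 1, against 8.86%. The part of these markers in the results was not tested. In RNA from whole cultures, fewer cells of a type and less RNA per cell cannot be told apart.

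Across the 12 libraries the 36 genes spanned a wide range of levels. The highest means were those of Atp6v0c (504 FPKM, above 99% of tested genes), Psap (352), Lamp1 (340) and Gabarap (313), and the lowest tested were Neu1 (6.47) and Gla (5.98, above 29% of tested genes). The hydrolases and their activator ran between Gla and Psap, and the autophagosome proteins of the LC3 and GABARAP family between Gabarapl1 (35.9 FPKM) and Gabarap.

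With scrambled siRNA, TGFb lowered most of the lysosomal genes and a part of the autophagy genes. Of the 35 tested members 21 fell and 3 rose (adjusted p under 0.05, limma with Benjamini-Hochberg adjustment over 11208 genes, the meaning of rose, fell and called here). Together these are 68.6% of members, against 45.5% of all tested genes. By direction they are 60.0% lower, against 29.1% of all tested genes, and 8.6% higher, against 16.4%. The median log2 change of the members was -0.20 and that of all genes -0.05. All 3 TGFb libraries lay below all 3 vehicle libraries for 24 members, against 34.7% of all genes, and above them for 4, against 20.3%. Under median-of-ratios scaling of the libraries (median of all genes 0.01), 17 members were lower and 6 higher, and with equal totals or quantile normalization 17 were lower and 5 higher. The share of higher calls among all called genes moved in the same settings, to 49.8% with median-of-ratios scaling, 45.6% with equal totals and 47.5% with quantile normalization, against 36.1% in the values as deposited. No member called in the values as deposited changed sign under any alternative.

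With Bmal1 siRNA, TGFb changed few members: 4 fell (Tfeb, Gabarapl1, Atp6v1a and Man2b1) and 2 rose (Atg5 and Sqstm1). Together these are 17.1% of members, against 19.0% of all tested genes. By direction they are 11.4% lower, against 10.1% of all tested genes, and 5.7% higher, against 8.90%, shares near the background. The median was -0.03, against 0.00 for all genes. All 3 TGFb libraries lay below the vehicle libraries for 9 members, against 17.9% of all genes, and above them for 7, against 17.6%. This count rests on replicate 2 of Bmal1 siRNA with TGFb. Without it 12 members fell, against 15.4% of all tested genes, and 1 rose, against 13.7%. Without the second TGFb library of both siRNAs 11 fell, against 15.5%, and 1 rose, against 13.5%. The calls numbered 2 without replicate 1 or 3 of Bmal1 siRNA with TGFb or replicate 2 or 3 of Bmal1 siRNA with vehicle. Over all tested genes 4.4% to 5.1% were then higher and 6.1% to 6.8% lower. Member calls numbered 3 without replicate 3 of scrambled siRNA with vehicle, which enters through the shared spread. Of all tested genes 8.2% were higher and 9.2% lower in that omission. Tfeb and Gabarapl1 were called in every alternative. With equal totals 7 members were lower, against 10.9% of all tested genes, and 1 higher, against 7.1%. With quantile normalization 5 were lower, against 10.2%, and 3 higher, against 10.5%.

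The responses under the separate siRNAs share no libraries, and across the 35 members their log2 changes had a Pearson r of 0.82 and a Spearman rho of 0.85, given as a description since the genes share their libraries. Of the 24 members called with scrambled siRNA, 21 had the same sign with Bmal1 siRNA and 24 had a smaller size there. These genes were picked for passing with scrambled siRNA, and over all 5105 genes so called 82.7% had the same sign with Bmal1 siRNA and 93.3% a smaller size. Of the 21 members that fell with scrambled siRNA, 4 also fell with Bmal1 siRNA, against 29.6% of all 3264 genes that fell. Without replicate 2 of Bmal1 siRNA with TGFb, Naglu, Psap, Neu1, Galns, Hexa, Gaa, Glb1 and Atg12 also fell with Bmal1 siRNA, beside those 4. The matching share over all genes was not computed. The change was then larger with Bmal1 siRNA for Hexa (-0.31, against -0.27 with scrambled siRNA), Galns (-0.26 against -0.20) and Wipi2 (0.14 against 0.13).

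**Figure D2:**
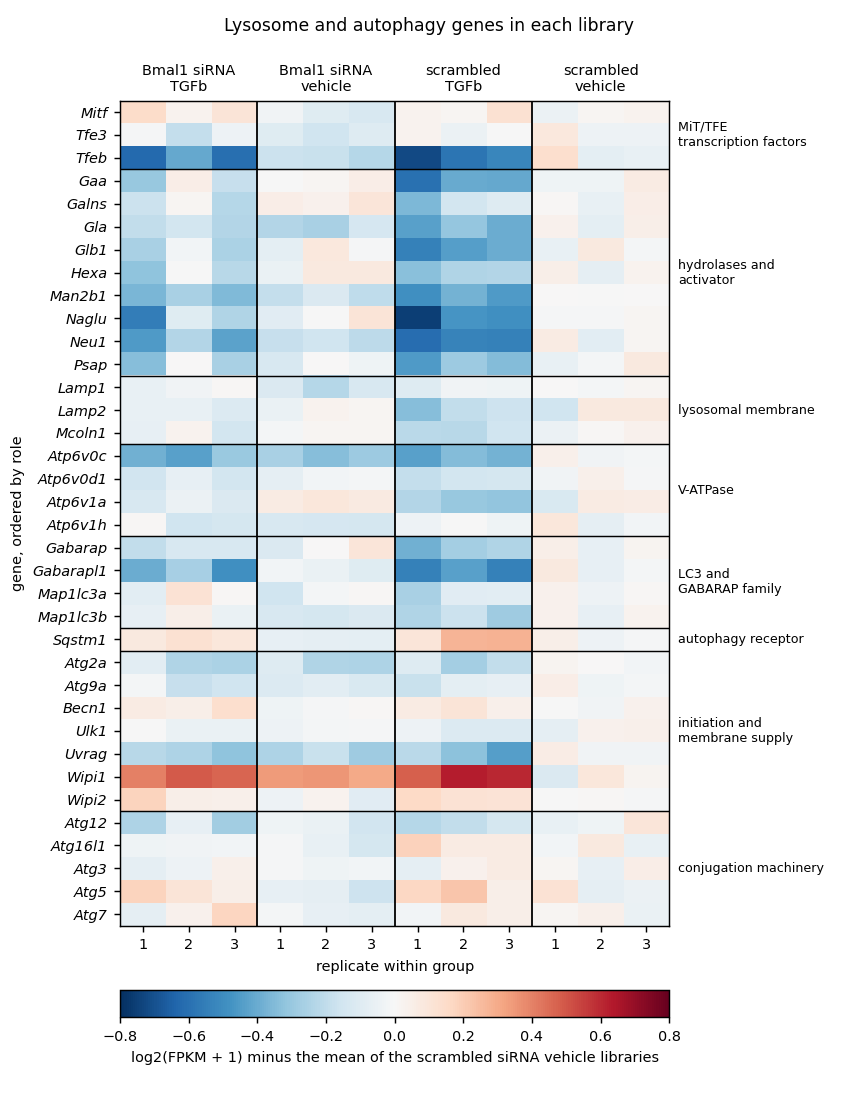
Level of each of the 36 genes in each library as log2(FPKM + 1) minus the mean of the scrambled siRNA vehicle libraries, with genes in rows by role and the 12 libraries in columns by group. Blue is lower and red higher; the hydrolase rows are blue in the scrambled TGFb libraries and paler in replicate 2 of Bmal1 siRNA with TGFb, and Wipi1 is red in all groups other than scrambled siRNA with vehicle.

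**Figure D3:**
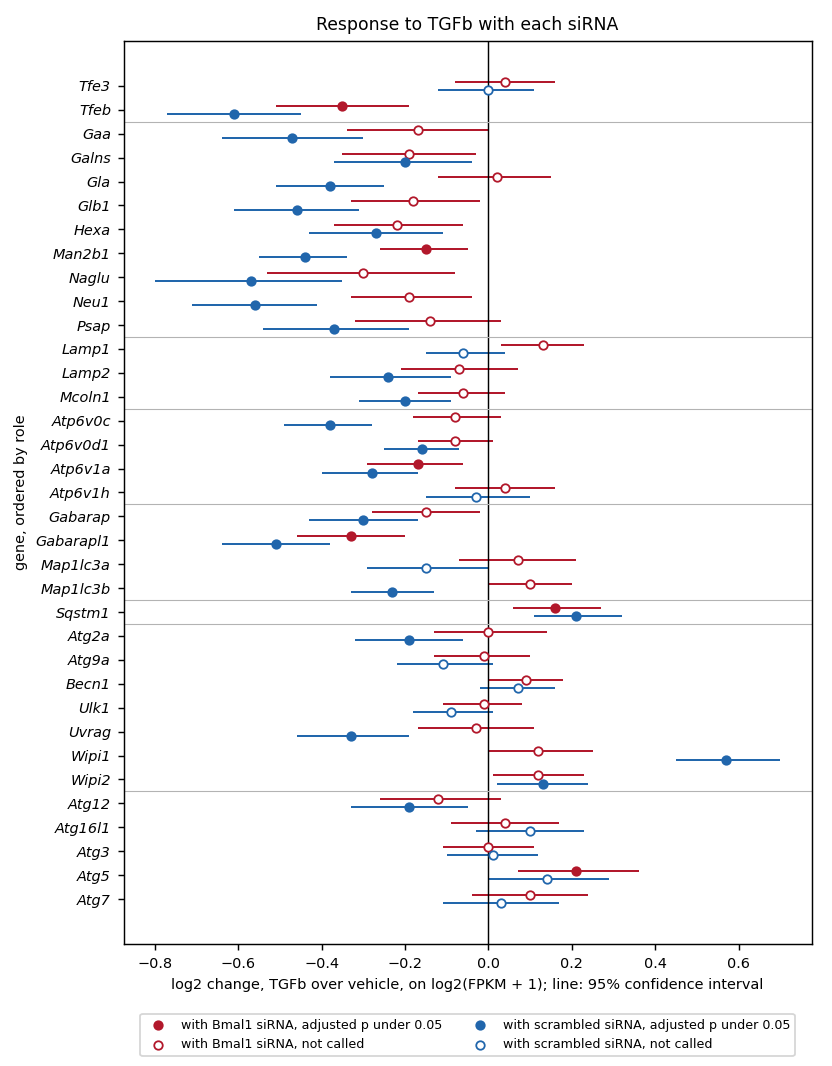
Log2 change with TGFb over vehicle for the 35 tested genes, on the log2(FPKM + 1) scale, in Bmal1 siRNA cells (red, upper point of each gene) and scrambled siRNA cells (blue, lower point). Lines are 95% confidence intervals from limma and filled points were called. All 9 hydrolase and activator points are filled with scrambled siRNA, and 1 with Bmal1 siRNA.

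Among the transcription factors Tfeb fell with TGFb under both siRNAs, whereas Tfe3 passed no test. Tfeb (chr17:47737030-47792419, plus strand, build mm10) encodes the factor best known for control of lysosome number. It had 13.73, 16.13 and 13.93 FPKM in Bmal1 siRNA cells with TGFb, 19.14, 19.04 and 18.38 in Bmal1 siRNA cells with vehicle, 12.74, 14.11 and 14.84 in scrambled siRNA cells with TGFb and 23.88, 20.55 and 20.83 in scrambled siRNA cells with vehicle. The TGFb libraries lay below the vehicle libraries with either siRNA. The change, on a log2(FPKM + 1) scale that compresses the changes of weakly expressed genes, was -0.35 ± 0.075 (SE, adjusted p = 0.0057) with Bmal1 siRNA and -0.61 ± 0.075 (adjusted p = 2.22e-05) with scrambled siRNA. The difference between these changes did not pass (0.26 ± 0.106, adjusted p = 0.122).

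Tfe3, a related factor with overlapping targets, was the more abundant, with 57.35, 50.61 and 56.12 FPKM in Bmal1 siRNA cells with TGFb, 54.12, 51.58 and 53.74 in Bmal1 siRNA cells with vehicle, 59.08, 56.06 and 57.83 in scrambled siRNA cells with TGFb and 61.43, 56.14 and 56.08 in scrambled siRNA cells with vehicle. The TGFb and vehicle libraries overlapped with either siRNA. Under vehicle the Bmal1 siRNA libraries lay below the scrambled siRNA libraries, without passing the test. The log2 change with TGFb was 0.04 ± 0.054 (adjusted p = 0.664) with Bmal1 siRNA and -0.00 ± 0.054 (adjusted p = 0.953) with scrambled siRNA. Mitf, the melanocyte factor of the family, had 0.44, 0.33 and 0.40 FPKM in Bmal1 siRNA cells with TGFb, 0.28, 0.22 and 0.19 in Bmal1 siRNA cells with vehicle, 0.33, 0.32 and 0.42 in scrambled siRNA cells with TGFb and 0.26, 0.32 and 0.33 in scrambled siRNA cells with vehicle. It was too low to be tested.

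All 9 genes for hydrolases and the saposin precursor fell with TGFb in scrambled siRNA cells, with log2 changes of -0.57 to -0.20 and a median of -0.44. With Bmal1 siRNA 1 of the 9, Man2b1, fell, with a median of -0.18 over the group. The calls with scrambled siRNA held in every alternative for 8 of the 9. The exception was Galns, a sulfatase of keratan sulfate (-0.20 ± 0.076, adjusted p = 0.043), whose call was lost under each other scaling, with no filter on low values, in the fit of the compared groups alone and without any of 6 libraries (replicates 1, 2 and 3 of Bmal1 siRNA with vehicle, replicate 1 of scrambled siRNA with TGFb, and replicates 1 and 3 of scrambled siRNA with vehicle).

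Naglu encodes an enzyme that removes N-acetylglucosamine from heparan sulfate. It had 16.40, 22.87 and 20.68 FPKM in Bmal1 siRNA cells with TGFb, 23.05, 24.56 and 26.51 in Bmal1 siRNA cells with vehicle, 14.14, 17.40 and 17.16 in scrambled siRNA cells with TGFb and 24.43, 24.43 and 24.84 in scrambled siRNA cells with vehicle. The TGFb libraries lay below the vehicle libraries with either siRNA, and the highest Bmal1 siRNA TGFb library came close to the lowest vehicle library. The log2 change with TGFb was -0.30 ± 0.103 (adjusted p = 0.0566) with Bmal1 siRNA and -0.57 ± 0.103 (adjusted p = 0.000519) with scrambled siRNA. Without replicate 2 of Bmal1 siRNA with TGFb the change with Bmal1 siRNA was -0.40 (adjusted p = 0.00785).

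Neu1 (chr17:34931253-34935953, plus strand) encodes the lysosomal sialidase. It had 5.54, 6.62 and 5.67 FPKM in Bmal1 siRNA cells with TGFb, 6.90, 7.01 and 6.75 in Bmal1 siRNA cells with vehicle, 4.87, 5.20 and 5.17 in scrambled siRNA cells with TGFb and 8.39, 7.45 and 8.07 in scrambled siRNA cells with vehicle. TGFb and vehicle libraries did not overlap with either siRNA, and the gap was wider with scrambled siRNA. The log2 change was -0.19 ± 0.068 (adjusted p = 0.0721) with Bmal1 siRNA and -0.56 ± 0.068 (adjusted p = 1.95e-05) with scrambled siRNA.

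Gaa encodes acid alpha-glucosidase, the enzyme of lysosomal glycogen breakdown. It had 119.64, 152.93 and 129.48 FPKM in Bmal1 siRNA cells with TGFb, 147.53, 148.88 and 153.24 in Bmal1 siRNA cells with vehicle, 97.12, 111.16 and 111.07 in scrambled siRNA cells with TGFb and 144.19, 144.30 and 154.35 in scrambled siRNA cells with vehicle. Replicate 2 of Bmal1 siRNA with TGFb lay within the vehicle range, and the other TGFb libraries lay below it. The log2 change with TGFb was -0.17 ± 0.078 (adjusted p = 0.156) with Bmal1 siRNA and -0.47 ± 0.078 (adjusted p = 0.000297) with scrambled siRNA, and the change with Bmal1 siRNA was -0.27 (adjusted p = 0.0062) without that replicate.

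Gla, the alpha-galactosidase A whose promoter is shown above, had 5.95, 6.19 and 5.77 FPKM in Bmal1 siRNA cells with TGFb, 5.77, 5.65 and 6.25 in Bmal1 siRNA cells with vehicle, 4.88, 5.42 and 5.05 in scrambled siRNA cells with TGFb and 7.14, 6.53 and 7.20 in scrambled siRNA cells with vehicle. The scrambled siRNA vehicle libraries were the highest of the 12 and the scrambled siRNA TGFb libraries the lowest. The log2 change with TGFb was 0.02 ± 0.062 (adjusted p = 0.877) with Bmal1 siRNA and -0.38 ± 0.062 (adjusted p = 0.000249) with scrambled siRNA.

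Man2b1, the lysosomal alpha-mannosidase, had 20.02, 21.67 and 20.22 FPKM in Bmal1 siRNA cells with TGFb, 22.68, 23.99 and 22.55 in Bmal1 siRNA cells with vehicle, 18.24, 19.83 and 18.82 in scrambled siRNA cells with TGFb and 26.17, 25.98 and 26.08 in scrambled siRNA cells with vehicle. TGFb and vehicle libraries were apart with either siRNA. The log2 change was -0.15 ± 0.049 (adjusted p = 0.0416) with Bmal1 siRNA, and -0.44 ± 0.049 (adjusted p = 8.81e-06) with scrambled siRNA. The call with Bmal1 siRNA was lost in 10 of the 24 alternatives: without the trend, in the fit of the compared groups alone, and without replicate 1 or 3 of Bmal1 siRNA with TGFb, any library of Bmal1 siRNA with vehicle, replicate 3 of scrambled siRNA with TGFb, or replicate 2 or 3 of scrambled siRNA with vehicle.

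Glb1, the lysosomal beta-galactosidase whose activity serves as a stain for senescent cells, had 23.38, 27.76 and 23.50 FPKM in Bmal1 siRNA cells with TGFb, 26.63, 29.95 and 27.93 in Bmal1 siRNA cells with vehicle, 19.10, 20.54 and 21.12 in scrambled siRNA cells with TGFb and 27.01, 29.76 and 27.83 in scrambled siRNA cells with vehicle. Its scrambled siRNA TGFb libraries lay below all 9 others. With TGFb it changed on the log2 scale by -0.18 ± 0.070 (adjusted p = 0.101) with Bmal1 siRNA and -0.46 ± 0.070 (adjusted p = 0.000153) with scrambled siRNA.

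Hexa, the alpha subunit of the ganglioside-cleaving hexosaminidase, had 34.18, 42.92 and 36.68 FPKM in Bmal1 siRNA cells with TGFb, 41.37, 45.40 and 45.37 in Bmal1 siRNA cells with vehicle, 33.93, 36.21 and 36.43 in scrambled siRNA cells with TGFb and 44.39, 40.84 and 43.89 in scrambled siRNA cells with vehicle. Only replicate 2 of Bmal1 siRNA with TGFb entered the range of the vehicle libraries. On the log2 scale its change with TGFb was -0.22 ± 0.073 (adjusted p = 0.0558) with Bmal1 siRNA and -0.27 ± 0.073 (adjusted p = 0.00852) with scrambled siRNA. Psap, the precursor of the saposins that present lipids to hydrolases, ranged over 307.60 to 390.14 FPKM in Bmal1 siRNA cells with TGFb, 356.32 to 389.74 in Bmal1 siRNA cells with vehicle, 283.45 to 317.51 in scrambled siRNA cells with TGFb and 373.07 to 411.11 in scrambled siRNA cells with vehicle, with a log2 change of -0.37 ± 0.079 (adjusted p = 0.00211) with scrambled siRNA. Replicate 2 of Bmal1 siRNA with TGFb was the highest of its 3 libraries for 9 of these 9 genes. Without it 8 of the 9, all but Gla, fell with TGFb under Bmal1 siRNA, against 15.4% of all tested genes.

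Of the lysosomal membrane proteins Lamp2 and Mcoln1 fell with TGFb in scrambled siRNA cells and Lamp1 did not pass. Lamp1 ranged over 338.99 to 355.34 FPKM in Bmal1 siRNA cells with TGFb, 301.40 to 326.63 in Bmal1 siRNA cells with vehicle, 328.74 to 346.62 in scrambled siRNA cells with TGFb and 349.33 to 357.98 in scrambled siRNA cells with vehicle. Its TGFb libraries lay above the vehicle libraries with Bmal1 siRNA and below them with scrambled siRNA, with log2 changes of 0.13 ± 0.045 (adjusted p = 0.0652) and -0.06 ± 0.045 (adjusted p = 0.34) and a difference of 0.18 ± 0.064 (adjusted p = 0.0742). The change with Bmal1 siRNA was called by limma with quantile normalization (0.14, adjusted p = 0.032). Lamp2, which also serves chaperone-mediated autophagy, ranged over 120.09 to 135.92 FPKM in scrambled siRNA cells with TGFb and 136.73 to 161.31 with vehicle (log2 change -0.24 ± 0.065, adjusted p = 0.0101). That call was lost with quantile normalization (adjusted p = 0.0508). Mcoln1, a calcium-permeable channel of the lysosome, ranged over 30.43 to 31.80 FPKM in scrambled siRNA cells with TGFb and 34.41 to 36.60 with vehicle (-0.20 ± 0.049, adjusted p = 0.00488). With Bmal1 siRNA the change was -0.07 ± 0.065 for Lamp2 and -0.06 ± 0.049 for Mcoln1, and neither passed.

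The V-ATPase pumps protons into the lysosome, and 3 of its 4 member subunits fell with TGFb in scrambled siRNA cells. Atp6v0c (chr17:24163866-24169702, minus strand) encodes the proteolipid ring of the membrane sector. It had 459.81, 444.46 and 488.36 FPKM in Bmal1 siRNA cells with TGFb, 501.34, 475.76 and 491.62 in Bmal1 siRNA cells with vehicle, 445.34, 473.40 and 463.04 in scrambled siRNA cells with TGFb and 619.64, 590.61 and 594.56 in scrambled siRNA cells with vehicle. The scrambled siRNA vehicle libraries stood above all 9 others. The log2 change with TGFb was -0.08 ± 0.049 (adjusted p = 0.3) with Bmal1 siRNA and -0.38 ± 0.049 (adjusted p = 3.08e-05) with scrambled siRNA. GENCODE lists processed pseudogenes of Atp6v0c. How reads shared with such near-identical copies were assigned is not stated, so its level is uncertain.

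Atp6v1a, the catalytic subunit, had 22.63, 23.93 and 22.79 FPKM in Bmal1 siRNA cells with TGFb, 26.00, 26.46 and 26.17 in Bmal1 siRNA cells with vehicle, 20.93, 19.95 and 19.72 in scrambled siRNA cells with TGFb and 22.68, 25.96 and 25.91 in scrambled siRNA cells with vehicle. The TGFb libraries were lower with either siRNA, by log2 changes of -0.17 ± 0.054 (adjusted p = 0.0401) with Bmal1 siRNA and -0.28 ± 0.054 (adjusted p = 0.000876) with scrambled siRNA. The call with Bmal1 siRNA was lost with equal totals (adjusted p = 0.0598), without the trend (0.0513) and without any of 7 libraries (replicates 1 and 3 of Bmal1 siRNA with TGFb, replicates 1, 2 and 3 of Bmal1 siRNA with vehicle, and replicates 2 and 3 of scrambled siRNA with TGFb). Atp6v0d1, of the stalk, ranged over 54.69 to 56.81 FPKM in scrambled siRNA cells with TGFb and 61.55 to 64.33 with vehicle (log2 change -0.16 ± 0.042, adjusted p = 0.00704), a call lost with median-of-ratios scaling (0.0667) and equal totals (0.0598). Atp6v1h, the regulatory subunit, ranged over 14.84 to 17.84 FPKM in the 12 libraries and passed no test.

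Proteins of the LC3 and GABARAP family are conjugated to the growing autophagosome membrane, and 3 of the 4 fell with TGFb in scrambled siRNA cells. Gabarapl1 (chr6:129533160-129542346, plus strand) had 31.66, 34.77 and 29.57 FPKM in Bmal1 siRNA cells with TGFb, 41.26, 40.47 and 39.11 in Bmal1 siRNA cells with vehicle, 28.57, 30.74 and 28.54 in scrambled siRNA cells with TGFb and 44.33, 40.11 and 41.54 in scrambled siRNA cells with vehicle. The TGFb libraries were clear of the vehicle libraries with either siRNA. The log2 change was -0.33 ± 0.060 (adjusted p = 0.00247) with Bmal1 siRNA and -0.51 ± 0.060 (adjusted p = 1.75e-05) with scrambled siRNA. Exons of Gabarapl1 share 28.3% of their bases with 1700101I11Rik, and no source used here states whether counting used strand.

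Gabarap had 294.22, 308.14 and 308.60 FPKM in Bmal1 siRNA cells with TGFb, 311.03, 338.38 and 361.51 in Bmal1 siRNA cells with vehicle, 258.38, 278.96 and 286.09 in scrambled siRNA cells with TGFb and 348.07, 322.94 and 342.22 in scrambled siRNA cells with vehicle. Its TGFb libraries were again the lower, with log2 changes of -0.15 ± 0.060 (adjusted p = 0.104) with Bmal1 siRNA and -0.30 ± 0.060 (adjusted p = 0.00119) with scrambled siRNA. Map1lc3b, which encodes the LC3 protein most used as an autophagosome marker, had 99.89, 108.02 and 100.70 FPKM in Bmal1 siRNA cells with TGFb, 95.74, 94.82 and 96.60 in Bmal1 siRNA cells with vehicle, 88.53, 92.77 and 85.99 in scrambled siRNA cells with TGFb and 107.39, 100.10 and 106.85 in scrambled siRNA cells with vehicle. The TGFb libraries were above the vehicle libraries with Bmal1 siRNA and below them with scrambled siRNA. The log2 changes were 0.10 ± 0.047 (adjusted p = 0.149) with Bmal1 siRNA and -0.23 ± 0.047 (adjusted p = 0.00127) with scrambled siRNA.

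Map1lc3a, its close paralog, had 48.12, 55.59 and 51.44 FPKM in Bmal1 siRNA cells with TGFb, 45.72, 50.54 and 51.57 in Bmal1 siRNA cells with vehicle, 42.58, 47.89 and 48.18 in scrambled siRNA cells with TGFb and 52.36, 49.73 and 51.41 in scrambled siRNA cells with vehicle. The groups overlapped with Bmal1 siRNA and did not with scrambled siRNA, and neither change passed (0.07 ± 0.065, adjusted p = 0.51, with Bmal1 siRNA and -0.15 ± 0.065, adjusted p = 0.0853, with scrambled siRNA).

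Sqstm1 encodes the receptor that links ubiquitinated cargo to LC3 and is itself degraded by autophagy, and its RNA rose with TGFb under both siRNAs. It had 135.20, 139.41 and 136.67 FPKM in Bmal1 siRNA cells with TGFb, 122.77, 122.09 and 121.68 in Bmal1 siRNA cells with vehicle, 136.99, 154.94 and 155.71 in scrambled siRNA cells with TGFb and 132.71, 124.74 and 127.51 in scrambled siRNA cells with vehicle. All TGFb libraries lay above all vehicle libraries. The log2 change was 0.16 ± 0.050 (adjusted p = 0.0364) with Bmal1 siRNA and 0.21 ± 0.050 (adjusted p = 0.00363) with scrambled siRNA. The call with Bmal1 siRNA was lost without the trend (adjusted p = 0.056), without any of the 6 Bmal1 siRNA libraries (0.0533 to 0.105) and without replicate 3 of scrambled siRNA with vehicle (0.0507). Mrnip, at 9.77 to 13.5 FPKM, shares 17.3% of the exon bases of Sqstm1.

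Among the 7 genes of initiation and membrane supply Wipi1 stood out, with the largest rise of any member with TGFb in scrambled siRNA cells. Wipi1 (chr11:109573331-109611967, minus strand) encodes a protein that binds phosphatidylinositol 3-phosphate at the forming autophagosome. It had 30.14, 32.07 and 31.54 FPKM in Bmal1 siRNA cells with TGFb, 28.75, 29.10 and 27.99 in Bmal1 siRNA cells with vehicle, 31.84, 35.31 and 34.82 in scrambled siRNA cells with TGFb and 20.72, 24.07 and 22.93 in scrambled siRNA cells with vehicle. The scrambled siRNA vehicle libraries were the lowest of the 12. Its log2 change with TGFb was 0.12 ± 0.058 (adjusted p = 0.163) with Bmal1 siRNA and 0.57 ± 0.058 (adjusted p = 4.56e-06) with scrambled siRNA.

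Its relative Wipi2 ranged over 25.66 to 26.52 FPKM in scrambled siRNA cells with TGFb and 23.53 to 23.82 with vehicle (log2 change 0.13 ± 0.050, adjusted p = 0.0487). That call was lost without any single library of the compared groups, so it stands at the edge of the threshold. Uvrag, a partner of Becn1 in the lipid kinase complex, had 10.54, 10.35 and 9.76 FPKM in Bmal1 siRNA cells with TGFb, 10.33, 10.91 and 10.08 in Bmal1 siRNA cells with vehicle, 10.61, 9.75 and 8.92 in scrambled siRNA cells with TGFb and 13.04, 12.19 and 12.19 in scrambled siRNA cells with vehicle. The scrambled siRNA vehicle libraries were the highest of the 12, and TGFb lowered it there (-0.33 ± 0.063, adjusted p = 0.000949), against -0.03 ± 0.063 (adjusted p = 0.795) with Bmal1 siRNA.

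Atg2a, a lipid transfer protein that feeds the growing membrane, had 24.53, 21.97 and 21.72 FPKM in Bmal1 siRNA cells with TGFb, 24.26, 21.92 and 21.87 in Bmal1 siRNA cells with vehicle, 24.30, 21.47 and 22.62 in scrambled siRNA cells with TGFb and 26.51, 26.13 and 25.74 in scrambled siRNA cells with vehicle. The scrambled siRNA vehicle libraries were again the highest (log2 change with TGFb -0.19 ± 0.061, adjusted p = 0.022), a call lost under each other scaling and without any of 4 libraries (replicates 2 and 3 of scrambled siRNA with TGFb and replicates 1 and 2 of scrambled siRNA with vehicle). The kinase Ulk1 (32.01 to 35.62 FPKM over the 12 libraries), Becn1 (37.05 to 41.80) and the scramblase Atg9a (32.14 to 38.07) passed no test with TGFb in the values as deposited. Becn1 and Atg5 were called higher with TGFb in scrambled siRNA cells under each of the other scalings. Exons of Becn1 share 43.9% of their bases with Cntd1 (0.14 to 0.61 FPKM), those of Atg9a 31.8% with Gm29253 and those of Uvrag 17.6% with Gm45187.

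Of the 5 members of the conjugation machinery, which attaches LC3 to lipid, 1 was called with each siRNA. Atg12 fell with TGFb in scrambled siRNA cells, where it ranged over 10.64 to 11.37 FPKM with TGFb and 12.08 to 13.56 with vehicle (log2 change -0.19 ± 0.066, adjusted p = 0.0321). The call was lost under each other scaling and without replicate 1 or 2 of scrambled siRNA with TGFb or replicate 3 with vehicle. Atg5, its conjugation partner, rose with TGFb in Bmal1 siRNA cells. It had 14.95, 14.17 and 13.56 FPKM in Bmal1 siRNA cells with TGFb, 12.45, 12.44 and 11.55 in Bmal1 siRNA cells with vehicle, 14.83, 15.47 and 13.54 in scrambled siRNA cells with TGFb and 14.30, 12.42 and 12.66 in scrambled siRNA cells with vehicle. With Bmal1 siRNA the groups were apart (0.21 ± 0.066, adjusted p = 0.041) and with scrambled siRNA they overlapped (0.14 ± 0.066, adjusted p = 0.0928). The call with Bmal1 siRNA was lost with no filter on low values (adjusted p = 0.0586), with equal totals (0.0588), and without any library of the compared groups other than replicate 2 with TGFb (0.0609 to 0.155) or without replicate 3 of scrambled siRNA with vehicle (0.0522). The enzymes Atg7 (7.49 to 9.07 FPKM) and Atg3 (21.61 to 23.89) and the scaffold Atg16l1 (6.75 to 8.70) passed no test as deposited, and Atg16l1 was called higher with TGFb and scrambled siRNA with median-of-ratios scaling (0.16, adjusted p = 0.0419).

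Under TGFb, 5 members were higher with Bmal1 siRNA than with scrambled siRNA, and 0 were lower by limma. They were Gaa (log2 difference 0.32 ± 0.078, adjusted p = 0.0103), Glb1 (0.28 ± 0.070, adjusted p = 0.0124), Map1lc3b (0.21 ± 0.047, adjusted p = 0.00758), Gla (0.19 ± 0.062, adjusted p = 0.0427) and Atp6v1a (0.19 ± 0.054, adjusted p = 0.0266). The share called was 14.3%, all of it higher, against 23.2% of all tested genes called, 16.0% higher and 7.16% lower. At an unadjusted p under 0.05 in limma, 12 members were higher and 2 lower, against 26.6% and 10.5% of all tested genes. The median of 0.06 equalled that of all genes. All 3 Bmal1 siRNA libraries lay above the scrambled siRNA libraries for 10 members, against 28.1% of all genes, and below them for 1, against 11.0%. These counts depended on the scaling: with median-of-ratios scaling, 2 members were higher (Gaa and Glb1) and 3 lower (Sqstm1, Atg16l1 and Wipi1), with equal totals 3 higher and 1 lower, and with quantile normalization 3 higher and 2 lower. Among all called genes the share higher was 44.9% with median-of-ratios scaling, 58.9% with equal totals and 53.3% with quantile normalization, against 69.1% as deposited. Without replicate 2 of Bmal1 siRNA with TGFb, 3 members were called, without replicate 1 of that group 8, without replicate 3 of scrambled siRNA with TGFb 3, and without the second TGFb library of both siRNAs 2. Over all tested genes 10.7%, 18.1%, 11.1% and 8.2% were higher in those omissions, and 5.9%, 7.7%, 5.4% and 5.1% lower. Gaa, Glb1 and Map1lc3b each lost their call in 1 or 2 alternatives, Gaa in the fit of the compared groups alone (adjusted p = 0.0587), Glb1 without replicate 1 of scrambled siRNA with TGFb (0.0507) and without both second libraries (0.0664), and Map1lc3b with median-of-ratios scaling (0.0557). The calls of Gla and Atp6v1a were the weaker ones. Gla lost its call in 15 of the 24 alternatives, among them each other scaling, the replicate block (0.0525), the fit of the compared groups alone and 8 omissions of 1 library. Atp6v1a lost its call in 8, which were each other scaling, the omission of replicate 2 or 3 of either TGFb group and that of both second TGFb libraries.

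Under vehicle, Bmal1 siRNA raised Wipi1 (log2 difference 0.33 ± 0.058, adjusted p = 0.0291) and lowered Atp6v0c (-0.30 ± 0.049, adjusted p = 0.0253). These were 5.7% of members, against 0.660% of all tested genes called, and 2.9% in each direction, against 0.294% of all genes higher and 0.366% lower. Across members the differences leaned down, with a median of -0.05 (0.01 over all genes). Above 0 were 7 of 35, against 52.5% of all tested genes. With median-of-ratios scaling 5 of 35 were above 0, with quantile normalization 11 and with equal totals 13. The medians of all genes in those settings were 0.00, -0.00 and 0.04. Members above the all-gene median numbered 5 as deposited, and 5, 12 and 6 in those settings. All 3 Bmal1 siRNA vehicle libraries lay below the scrambled siRNA vehicle libraries for 13 members, against 15.1% of all genes, and above them for 2, against 16.7%. At an unadjusted p under 0.05, 11 members were lower and 1 higher (10.7% and 11.0% of all tested genes), and beyond the called genes the sizes ran to -0.24 ± 0.063 (Uvrag, adjusted p = 0.0859), -0.21 ± 0.062 (Gla, 0.101), -0.20 ± 0.061 (Atg2a, 0.112) and -0.19 ± 0.075 (Tfeb, 0.169). Neither call held without replicate 2 or 3 of Bmal1 siRNA with vehicle, replicate 3 of scrambled siRNA with TGFb, or replicate 1 or 3 of scrambled siRNA with vehicle, and that of Wipi1 was also lost without replicate 1 of Bmal1 siRNA with vehicle or replicate 3 of Bmal1 siRNA with TGFb. Both calls were also lost with no filter on low values (adjusted p = 0.0594 for Atp6v0c and 0.0611 for Wipi1).

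The TGFb response itself differed between siRNAs for 7 members. The difference, the log2 change with TGFb in Bmal1 siRNA cells minus that in scrambled siRNA cells, was positive for Gla (0.40 ± 0.087, adjusted p = 0.0103), Neu1 (0.37 ± 0.096, adjusted p = 0.0212), Map1lc3b (0.33 ± 0.066, adjusted p = 0.00588), Atp6v0c (0.31 ± 0.069, adjusted p = 0.0114), Uvrag (0.30 ± 0.090, adjusted p = 0.0418) and Man2b1 (0.29 ± 0.069, adjusted p = 0.0154). It was negative for Wipi1 (-0.45 ± 0.082, adjusted p = 0.00386). For each of the 7 the change was the larger in scrambled siRNA cells, where the first 6 fell and Wipi1 rose. In all 20.0% of members were called, against 14.4% of all tested genes. By direction they were 17.1% higher, against 8.86% of all tested genes, and 2.9% lower, against 5.52%. The median difference was 0.14, against 0.06 over all genes, and 30 of 35 members were above 0, against 62.3% of all genes; with median-of-ratios scaling the medians were 0.08 and 0.00, and 26 of 35 were above 0. The share of positive differences among all called genes was 42.1% with median-of-ratios scaling, 44.4% with equal totals and 49.4% with quantile normalization, against 61.6% as deposited, and the members were then 5 positive and 1 negative, 4 and 1, and 5 and 1. Wipi1, Gla, Map1lc3b and Atp6v0c were called in every alternative. Man2b1 lost its call with equal totals (adjusted p = 0.0553) and Neu1 without replicate 3 of Bmal1 siRNA with vehicle (0.0532). Uvrag lost its call in 15 alternatives, 10 of them omissions of 1 library from any of the 4 groups (0.0571 to 0.101). Without replicate 2 of Bmal1 siRNA with TGFb the differences were 0.37 for Gla, 0.30 for Neu1, 0.30 for Map1lc3b, 0.34 for Atp6v0c, 0.25 for Man2b1 and -0.47 for Wipi1, all called, and 0.29 for Uvrag (adjusted p = 0.0622).

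**Figure D4:**
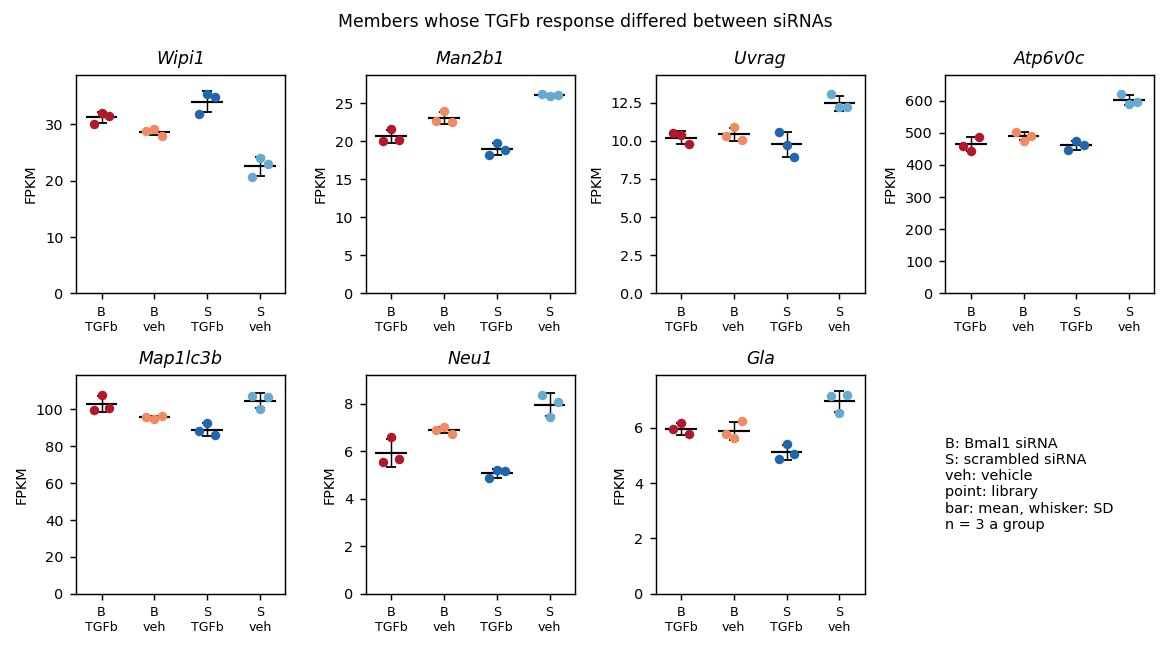
FPKM of the 7 members whose TGFb response differed between siRNAs, in each library (points), with the group mean (bar) and SD (whisker), n = 3 a group. Each vertical axis starts at 0. In every panel the scrambled siRNA vehicle group has the extreme mean of the 4 groups: the lowest for Wipi1 and the highest for the other genes, though for Map1lc3b its libraries overlap those of Bmal1 siRNA with TGFb.

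Further lysosome and autophagy genes were held in 8 lists with 170 tested genes. With scrambled siRNA, TGFb lowered 77 (45.3%, against 29.1% of all tested genes) and raised 13 (7.6%, against 16.4%). With Bmal1 siRNA it lowered 24 (14.1%, against 10.1%) and raised 8 (4.7%, against 8.90%). Bmal1 siRNA raised 43 (25.3%, against 16.0%) and lowered 4 (2.4%, against 7.16%) under TGFb. Under vehicle 0 were called by limma, against 0.660% of all tested genes. At an unadjusted p under 0.05, 9 were higher and 25 lower, against 11.0% and 10.7% of all tested genes. The difference in TGFb response was positive for 27 (15.9%, against 8.86%) and negative for 1 (0.6%, against 5.52%).

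These counts moved with the scaling. With scrambled siRNA, TGFb lowered 60 and raised 18 with median-of-ratios scaling, 63 and 17 with equal totals and 65 and 17 with quantile normalization. Over all tested genes 22.5%, 23.3% and 23.5% were then lower, and 22.3%, 19.5% and 21.3% higher. Under TGFb, 26 were higher with Bmal1 siRNA and 9 lower with median-of-ratios scaling, 32 and 4 with equal totals and 31 and 9 with quantile normalization. The shares over all tested genes were 8.7%, 11.4% and 10.6% higher, and 10.7%, 7.9% and 9.2% lower. The difference in response was positive for 13 and negative for 3, for 14 and 3, and for 16 and 3 in the same settings. All-gene shares there were 5.1%, 5.0% and 6.3% positive, and 7.1%, 6.3% and 6.4% negative. Without replicate 2 of Bmal1 siRNA with TGFb, TGFb with Bmal1 siRNA lowered 38, against 15.4% of all tested genes, and raised 14, against 13.7%. Under TGFb, 32 were then higher with Bmal1 siRNA, against 10.7%, and 6 lower, against 5.9%. The difference was positive for 21, against 8.8%, and negative for 3, against 5.6%.

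By list, TGFb with scrambled siRNA lowered 15 of 29 other hydrolases and raised 2. The largest changes there were in Sgsh, which cleaves sulfate from heparan sulfate (log2 change -1.42), the ganglioside activator Gm2a (-0.86) and Siae (-0.59). Sgsh averaged 1.55 ± 0.696 FPKM in Bmal1 siRNA cells with TGFb, 3.97 ± 0.207 in Bmal1 siRNA cells with vehicle, 0.857 ± 0.13 in scrambled siRNA cells with TGFb and 3.96 ± 0.141 in scrambled siRNA cells with vehicle (SD, n = 3 each, as for the levels that follow). Its Bmal1 siRNA TGFb libraries had 1.06, 2.35 and 1.25 FPKM, and the log2 change with Bmal1 siRNA was -0.99, or -1.21 without replicate 2. Of 10 tested proteases 5 fell and 3 rose. Cathepsin B (Ctsb) averaged 289 ± 25.8 FPKM in Bmal1 siRNA cells with TGFb, 371 ± 16.8 in Bmal1 siRNA cells with vehicle, 240 ± 6.17 in scrambled siRNA cells with TGFb and 413 ± 18.4 in scrambled siRNA cells with vehicle (log2 change -0.36 with Bmal1 siRNA and -0.78 with scrambled siRNA), and Ctsa fell by 0.58 on the log2 scale with scrambled siRNA. Ctsw went against them: it averaged 22.2 ± 12.7 FPKM in Bmal1 siRNA cells with TGFb, 0.26 ± 0.201 in Bmal1 siRNA cells with vehicle, 60.5 ± 0.168 in scrambled siRNA cells with TGFb and 0.337 ± 0.22 in scrambled siRNA cells with vehicle. The Bmal1 siRNA TGFb libraries of Ctsw had 31.88, 7.77 and 26.80 FPKM, the lowest in replicate 2, and the rise with Bmal1 siRNA was called with that replicate (adjusted p = 2.86e-05) and without it (log2 change 4.60, adjusted p = 5.33e-10).

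Of 26 further membrane and transport proteins 15 fell and 1 rose with TGFb in scrambled siRNA cells, led by Scarb2 (-0.96), the receptor that carries glucocerebrosidase to lysosomes, Gpnmb (-0.78) and Abca2 (-0.52). Of 15 other V-ATPase subunits 8 fell and 1 rose. Atp6v0e2 averaged 13.5 ± 3.94 FPKM in Bmal1 siRNA cells with TGFb, 23.5 ± 0.529 in Bmal1 siRNA cells with vehicle, 7.43 ± 0.395 in scrambled siRNA cells with TGFb and 26.5 ± 0.695 in scrambled siRNA cells with vehicle (log2 change -0.79 with Bmal1 siRNA, adjusted p = 0.00132, and -1.71 with scrambled siRNA, adjusted p = 4.53e-07), and the fall with Bmal1 siRNA was also called without replicate 2 of Bmal1 siRNA with TGFb (adjusted p = 1.25e-06). With scrambled siRNA Atp6v0a1 fell by 0.74 and Atp6v1f by 0.50 on the log2 scale. Of 20 genes for sorting and delivery to lysosomes 8 fell, led by the sorting receptor Sort1 (-1.21), with Gga2 at -0.28 and Vps18 at -0.27.

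Of 24 genes of mTORC1 and nutrient control 13 fell and 2 rose with TGFb in scrambled siRNA cells. The sestrins, stress-induced inhibitors of mTORC1, differed in direction: Sesn3 (-1.06) and Sesn1 (-0.69) fell and Sesn2 (0.63) rose. Of 28 other autophagy machinery genes 8 fell and 4 rose, with Tecpr1 at -0.73, Rb1cc1, a scaffold of the Ulk1 complex, at 0.41 and Zfyve1 at -0.34. Of 18 other autophagy receptors 5 fell, with Stbd1 at -0.65, Rtn3, a receptor for turnover of the endoplasmic reticulum, at -0.38 and Calcoco1 and Fundc1 at -0.36. These shares of lower calls, 28.6% and 27.8%, were near the 29.1% of all tested genes.

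**Figure D5:**
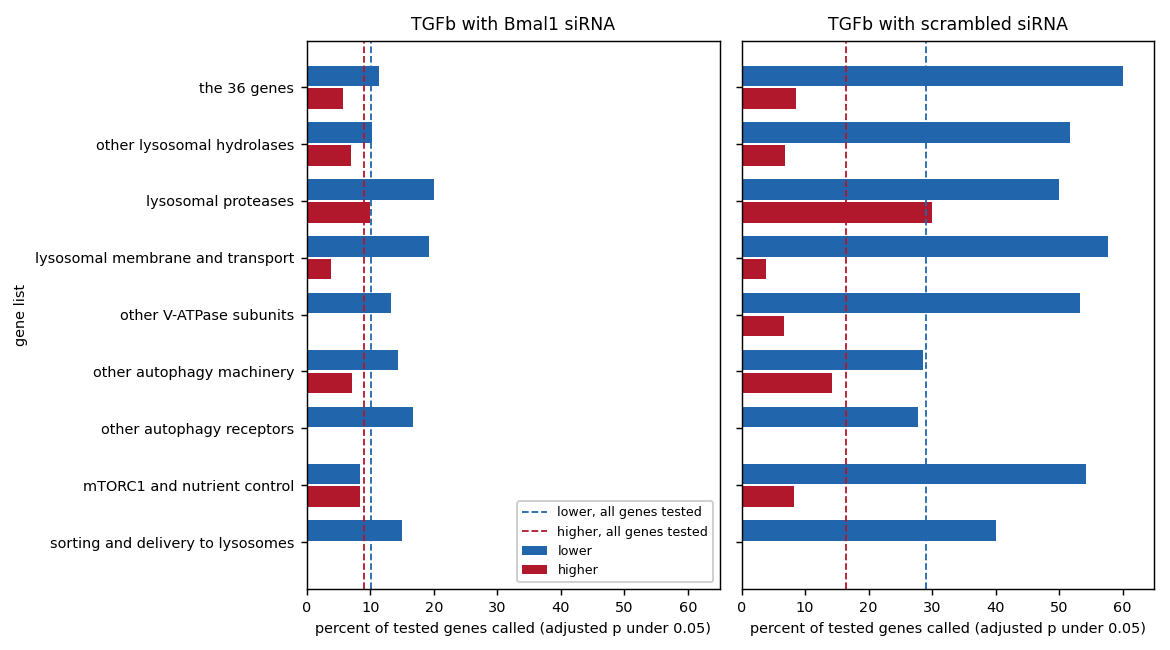
Percent of tested genes called lower (blue bars) and higher (red bars) with TGFb over vehicle, in Bmal1 siRNA cells (left) and scrambled siRNA cells (right), for the 36 genes (35 tested) and 8 further lists; dashed lines are the shares over all 11208 tested genes. With scrambled siRNA the blue bar of the 36 genes reaches 60.0%, against 29.1% over all genes. Blue bars of the lysosomal, sorting and mTORC1 lists lie at 40.0% to 57.7%, and those of the other autophagy lists at 27.8% and 28.6%.

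Members with and without the E-box were set side by side. With scrambled siRNA, 7 of the 11 members with CACGTG in the promoter fell with TGFb (median log2 change -0.20), while 12 of the 18 tested members with a promoter entry and no CACGTG fell and 3 rose (median -0.26). For the 8-base element the medians were -0.18 with it (8 members) and -0.27 without it (21 members). The TGFb response differed between siRNAs for 1 of the 11 members with CACGTG, Gla, and for 6 of the 18 without it. Among all tested genes with a promoter entry, 32.7% of those with CACGTG and 28.8% of those without it fell with TGFb and scrambled siRNA. The shares that rose were 15.1% and 16.1%. The difference in response was positive for 11.3% of those with it and negative for 4.64%, against 8.59% and 5.04% without it. Under TGFb, 4 of the 5 members that were higher with Bmal1 siRNA held CACGTG (Gaa, Gla, Glb1 and Atp6v1a), with medians of 0.14 with the motif and 0.07 without it. Over all tested genes with a promoter entry, 13.4% of those higher with Bmal1 siRNA under TGFb held CACGTG, 17.7% of those with the motif were higher, against 15.7% of those without it, and the medians were 0.07 and 0.06. The member count rests on calls that the scaling moved: with median-of-ratios scaling Gaa and Glb1 were higher, and Sqstm1 and Wipi1, without the motif, and Atg16l1, without a promoter entry, were lower. The promoters of Wipi1, Atp6v0c, Neu1, Man2b1, Map1lc3b and Uvrag held none within the 300 bases examined. The RefSeq start used for Wipi1 lay 578 bases downstream of its GENCODE start, and that used for Wipi2 1886 bases. Sequence at the GENCODE starts of these genes was therefore not examined. The motif counts describe the members and were not tested.

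Markers of other cell types moved with TGFb, and their part in the results was not tested. Single markers within a list moved in opposite directions. The summed level of 6 tabulated hepatocyte markers, mainly Trf, was 61.7 to 117 FPKM in Bmal1 siRNA cells with TGFb, 214 to 250 in Bmal1 siRNA cells with vehicle, 70.6 to 93.2 in scrambled siRNA cells with TGFb and 199 to 220 in scrambled siRNA cells with vehicle, with Apoa1, Cyp2e1 and Cps1 below 0.5 FPKM in every library. Against that sum Ass1 rose with TGFb under both siRNAs, and averaged 12.3 ± 2.59 FPKM in Bmal1 siRNA cells with TGFb, 6.23 ± 1.1 in Bmal1 siRNA cells with vehicle, 33.5 ± 3.18 in scrambled siRNA cells with TGFb and 5.93 ± 0.475 in scrambled siRNA cells with vehicle. For 6 cholangiocyte and epithelial markers, mainly Spp1, it was 105 to 189 FPKM in Bmal1 siRNA cells with TGFb, 82 to 93.3 in Bmal1 siRNA cells with vehicle, 212 to 231 in scrambled siRNA cells with TGFb and 77.4 to 88.9 in scrambled siRNA cells with vehicle, with Epcam below 0.5 FPKM in every library. Krt19 and Krt7 went the other way with scrambled siRNA, where Krt19 averaged 2.25 ± 0.802 FPKM with TGFb and 3.93 ± 0.22 with vehicle, and Krt7 1.12 ± 0.506 with TGFb and 2.41 ± 0.364 with vehicle (log2 changes -0.63 and -0.71). For 7 endothelial markers, mainly Eng, it was 83.5 to 92.2 FPKM in Bmal1 siRNA cells with TGFb, 73.5 to 75.8 in Bmal1 siRNA cells with vehicle, 104 to 110 in scrambled siRNA cells with TGFb and 78.5 to 83.3 in scrambled siRNA cells with vehicle, with Egfl7 lower with TGFb and scrambled siRNA (log2 change -0.49) and Pecam1, Cdh5, Kdr, Stab2 and Lyve1 below 0.5 FPKM in every library.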

How the data were processed

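RNA from 12 libraries of EMS404 cells, 4 groups of 3, was analysed from a table in which the authors deposited FPKM values per gene, rounded to 2 decimals. HISAT2 2.0.4, Bowtie2 2.2.5, RSEM, DESeq2 and the build mm10 are named in the submitters' processing notes, without their roles. Depth is unknown, since FPKM hides the fragment counts, and the precision rests on 3 libraries a group. Per the labels, the replicates are biological. Of 16290 lines, 555 named no gene (1.304% to 1.464% of each library's FPKM total) and were left out, and of 15 repeated identifiers the lower line was dropped, leaving 15720 genes. Symbols came from GENCODE M21, which matched 15694.

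The 11208 genes whose mean reached 0.5 FPKM entered limma (version 3.58.1, R version 4.3.3) after addition of a pseudocount of 1 and log2 transformation. The model had an intensity trend and was a group-means fit over all 12 libraries (8 residual degrees of freedom), two-sided, with Benjamini-Hochberg adjustment over all of them and calls at an adjusted p under 0.05. The fit was tested on simulated data. The alternatives were other pseudocounts (0.1 and 5), filters, scalings, limma settings, the replicate number as a block, the compared groups alone and the omission of each library, and, added later, of both second TGFb libraries. The 36 genes, the other lists and that last omission were chosen with earlier results of these data known. Every member is accounted for; those with the largest changes and 2 families are given by library, and from each other list up to 3 called genes of largest change with TGFb and scrambled siRNA were named. Motif matches came from RefSeq promoters.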

Additional observations from a re-analysis of the deposited data

Results flagged for a closer look

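The TGFb response differed between siRNAs by the interaction term in limma for 7 of the 35 tested members. The difference, the log2 change with TGFb in Bmal1 siRNA cells minus that in scrambled siRNA cells, was 0.40 for Gla, 0.37 for Neu1, 0.33 for Map1lc3b, 0.31 for Atp6v0c, 0.30 for Uvrag, 0.29 for Man2b1 and -0.45 for Wipi1. From each other list only the called gene of largest absolute difference is given, with all libraries included. The difference was 0.92 for the V-ATPase subunit Atp6v0e2, whose Bmal1 siRNA TGFb libraries had 10.03, 17.77 and 12.64 FPKM, the highest in replicate 2. For Gpnmb it was 0.81, for the sorting receptor Sort1 0.63, for Ctsa 0.42, for Wdr45 0.42, for Dnase2a 0.39 and for Calcoco1 0.34. It was -0.96 for Ddit4, an inhibitor of mTORC1, which averaged 22.5 ± 6.17 FPKM in Bmal1 siRNA cells with TGFb, 32.4 ± 6.17 in Bmal1 siRNA cells with vehicle, 29.9 ± 6.39 in scrambled siRNA cells with TGFb and 21.5 ± 1.84 in scrambled siRNA cells with vehicle (SD, n = 3 each). For Arntl, the siRNA's target, it was -0.77.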

How the results depend on the processing

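Over 24 alternatives no member value that was called, as deposited or in the alternative, changed sign, while uncalled values near 0 did (Lamp1 with TGFb and scrambled siRNA, -0.07 to 0.06) and the balance of higher and lower calls turned between siRNAs under TGFb. Of the members, 18 of the 24 members called with TGFb and scrambled siRNA, 2 of 6 with TGFb and Bmal1 siRNA, 0 of 5 between siRNAs under TGFb, 0 of 2 under vehicle and 4 of 7 for the difference in response were called in every one that could be fitted. Members called with TGFb and Bmal1 siRNA (6) numbered 3 without the intensity trend, 12 without both second TGFb libraries and 2 to 13 with 1 library left out. Those between siRNAs under TGFb (5) numbered 3 in the fit of the compared groups alone, 2 without both second TGFb libraries and 3 to 8 with 1 library left out. Those under vehicle (2) numbered 0 with no filter on low values, 5 with the replicate block and 0 to 2 with 1 library left out. With scrambled siRNA the members called numbered 21 to 24, and for the difference in response 5 to 9, with 1 library left out.

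Over all genes, the calls with TGFb and Bmal1 siRNA (2128) numbered 3246 without both second TGFb libraries and 1171 to 3265 with 1 library left out. Without the intensity trend, 8.4% of all tested genes were higher with TGFb and Bmal1 siRNA and 9.9% lower. Calls between siRNAs under TGFb (2596) numbered 1565 in the fit of the compared groups alone and 1489 without both second TGFb libraries. With 1 library left out they numbered 1850 to 2921. Those under vehicle (74, with 2433 at an unadjusted p under 0.05) numbered 7 with no filter, 540 with the replicate block, 245 in the fit of the compared groups alone, 414 without both second TGFb libraries and 2 to 472 with 1 library left out. The difference in response (1612) was called for 991 to 1872 genes with 1 library left out. TGFb with scrambled siRNA (5105) gave 4385 to 5468 calls in the same omissions. The cause of these shifts was not tested, beyond the smaller number of libraries where some were left out.

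The labels state no pairing of replicate numbers, and these values do not settle whether there was any. Deviations from the group means of same-numbered libraries correlated at 0.370, 0.173 and 0.040 between TGFb and vehicle with Bmal1 siRNA. With scrambled siRNA they correlated at -0.024, -0.149 and 0.081. Between siRNAs the values were 0.475, 0.299 and -0.051 under TGFb and 0.171, 0.071 and 0.006 under vehicle. In none of these 4 comparisons did every library correlate best with its own number. Replicate 1 correlated at 0.370, 0.419 and 0.475 among the groups other than scrambled siRNA with vehicle. Bmal1 siRNA with vehicle and scrambled siRNA with TGFb were not compared with each other, but both enter the difference in response. Between them the deviations correlated at 0.419, 0.222 and 0.203, each library best with its own number. That is a hint of pairing from the data and not the design. With the replicate block 9 members were called with TGFb and Bmal1 siRNA and 26 with TGFb and scrambled siRNA. Between siRNAs under TGFb 6 were called, and for the difference in response 9. Of all tested genes 10.8% were then higher and 12% lower with TGFb and Bmal1 siRNA, and 17.4% and 30.5% with scrambled siRNA. Between siRNAs under TGFb 18.2% were higher and 8.1% lower, and the difference was positive for 10.7% and negative for 6.2%. The block added Naglu, Hexa and Glb1 with TGFb and Bmal1 siRNA, and Map1lc3a and Atg5 with TGFb and scrambled siRNA. Between siRNAs under TGFb it added Naglu and Lamp2, and Gla was lost (adjusted p = 0.0525). It also added Man2b1, Atg2a and Uvrag under vehicle and Gaa and Glb1 for the difference in response.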
